A study of Mus musculus with 4 samples.

Results

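Foxr2 binding was described at 10 astrocyte and radial glia genes: Gfap, Vim, Slc1a2, Slc1a3, Aqp4, Gja1, Aldh1l1, Aldoc, S100b and Fabp7. They were chosen by name from the 21866 protein-coding genes of GENCODE M21, and a peak was counted for a gene where it overlapped the gene body or the 10 kb on either side in GRCm38 (mm10). In the Foxr2 p53LOF line, 7 of the 10 genes held a site found in both replicates, as did 49.9% of all protein-coding genes. In 6 of them (Gfap, Vim, Slc1a3, Aldoc, S100b and Fabp7) it lay at their own promoter, as it did in 39.3% of all genes. The highest fold over background was at the Vim promoter, at 17.2 in replicate 1 and 20.0 in replicate 2. All peaks of Slc1a2 and Gja1 were weaker and were removed by the filter, and Aqp4 held none.

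Radial glia are the neural stem cells of the embryonic brain, and astrocytes arise from them. The genes described here are used by these cell types, some in both and some mainly in one: intermediate filaments (Gfap, Vim), sodium-coupled glutamate transporters (Slc1a2, Slc1a3), membrane channels (Aqp4, Gja1), metabolic enzymes (Aldh1l1, Aldoc) and small binding proteins (S100b, Fabp7). Vim, Fabp7 and Slc1a3 are typical of radial glia, while Aqp4, Slc1a2 and Aldh1l1 are typical of mature astrocytes. Gfap and S100b are astrocyte genes too, both with a site at their own promoter, and the genes were not compared by cell type.

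Foxr2, a forkhead transcription factor, was mapped by CUT&RUN through its V5 tag in a Foxr2 p53LOF neurosphere line (2 replicates), with a V5 control (2 replicates) beside it. In CUT&RUN an antibody brings a nuclease to the protein, and the DNA cut free around it is sequenced. The Foxr2 p53LOF line (strain C57BL/6J) came from a tumour raised by in utero electroporation of the ganglionic eminences with a piggyBac vector, in which the ubiquitous CAG promoter drives V5-tagged FOXR2 and GFP, and with Cas9 and a guide against Trp53. The V5 control (also C57BL/6J, genotype H3.3 G34R in the labels) was from a separate electroporation model that lacks the tag. A sample was 500000 cells, fixed for 1 min in 0.1% formaldehyde. The lines differ in more than the tag, so tag and line cannot be told apart, and the labels do not say whether replicates are separate cultures, so their spread may be technical. Group comparisons of 2 libraries against 2 cannot go below a two-sided permutation p of 0.333, so values are given per library without a test. No RNA values were used here, so the cell type of the lines could not be checked against the levels of these genes.

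The Foxr2 p53LOF libraries held 31909 and 38580 peaks, and the V5 control libraries held 308 and 124. The fold of a peak is the number of fragments at its summit plus 1, divided by the background plus 1. After removal of peaks that overlapped a control peak, or whose fold or −log10 q was not above 6, or that reached 10000 bp in length, 13418 and 14864 peaks were left. Their overlap gave 11947 sites present in both replicates. A fold above 6 took 13 fragments in replicate 1 and 18 in replicate 2, so intervals on single folds are wide, and they cover counting error only. Folds were higher in replicate 2 at 75.1% of all sites, with a median ratio of replicate 2 to replicate 1 of 1.16.

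Before the filter, the regions of the 10 genes held 24 peaks in replicate 1 and 31 in replicate 2. The filter kept 14 and 12 of them, and these overlapped to form 12 sites. Of the 12 sites, 6 lay at the gene's own promoter (1 kb either side of a protein-coding transcript start), 3 at the promoter of a neighbouring gene and 3 farther from every promoter.

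**Figure D1:**
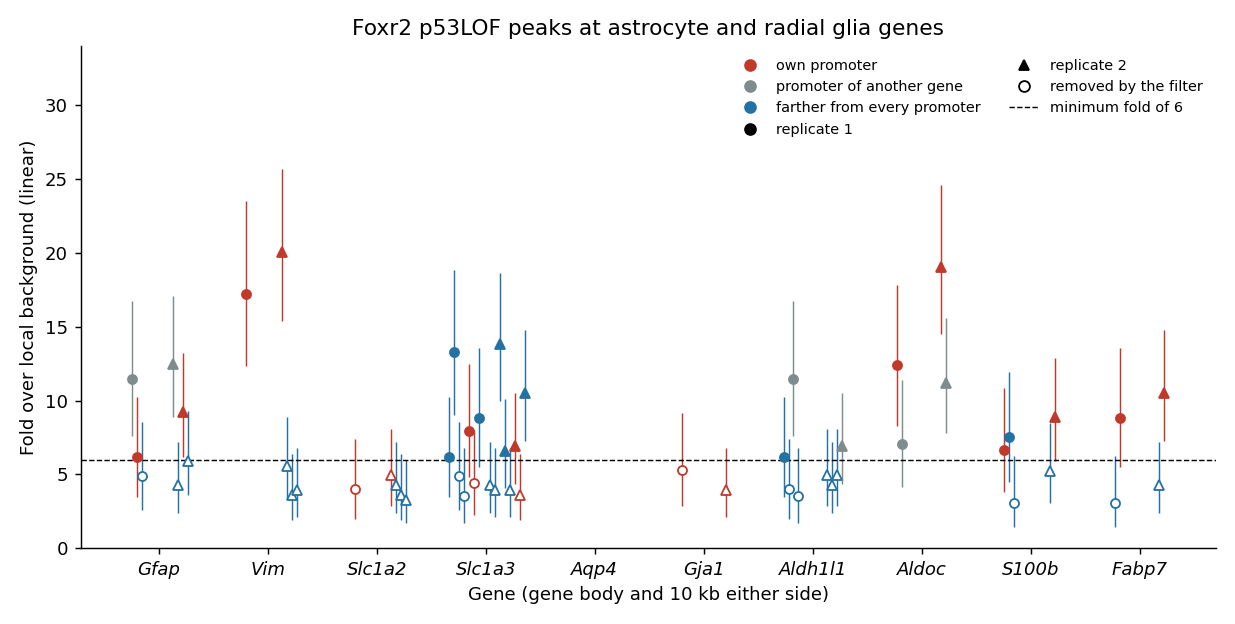
Fold over background (linear axis) of every Foxr2 p53LOF peak in the regions of the 10 genes, by replicate. The axis calls the background local, but the folds fit a single background per library. Bars are exact 95% Poisson intervals from the fragments at the summit. Open symbols are peaks removed by the filter, and the dashed line is the minimum fold of 6. Vim and Aldoc carry the highest own-promoter folds, and Aqp4 has no symbol in either replicate.

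A site in the region was found for 7 of 10 genes, against 49.9% of all protein-coding genes. A site at the own promoter was found for 6 of 10, against 39.3%. With a minimum fold of 10 in place of 6, these counts were 4 of 10 against 27.7% and 2 of 10 (Vim and Aldoc) against 19.8%, so the own-promoter count was then at the background share. Aldh1l1 was the 1 gene with a site only away from its own promoter, which 10.6% of all genes showed. Before the filter, 9 of 10 genes had overlapping peaks of both replicates in the region (62.6% of all genes) and 8 of 10 had them at the promoter (51.2%). Aqp4 was the 1 gene with no peak in either library, which held for 30.7% of all genes. No control peak lay in any of the 10 regions, against 0.617% of all genes with one, and the nearest control peak was between 0.433 Mb (Fabp7) and 63.7 Mb (Slc1a3) away. With 10 genes chosen by name, these shares describe the genes and were not tested against the background.

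Vim, the intermediate filament of radial glia and other progenitors, carried 1 broad site over its start (chr2:13571234-13574868). Its fold was 17.2 in replicate 1 (38 fragments, 95% interval 12.3 to 23.5) and 20.0 in replicate 2 (60 fragments, 15.4 to 25.7). The summits lay 125 and 137 bp downstream of the main start, in an untranslated exon, 12 bp from each other. The lower fold stood at the 91.3rd percentile of all 11947 sites and at the 88.7th percentile of the promoter sites. In replicate 2 a pair of weaker intronic peaks (5.59 and 3.61) and a downstream peak (3.94) did not pass the filter, while in replicate 1 the single peak spanned 5755 bp.

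Gfap, the intermediate filament of astrocytes, had a weak site near its own start and a stronger one at a neighbour. The upstream site (chr11:102898024-102899184) had folds of 6.19 in replicate 1 (13 fragments, 3.50 to 10.3) and 9.20 in replicate 2 (27 fragments, 6.17 to 13.2). Its summits lay 1228 and 1550 bp upstream of the main start, so only its near edge falls in the promoter window, and it lies within a longer non-coding transcript of the gene. In replicate 1 it was among the peaks just above the minimum fold. A pair of peaks at the start of that transcript, 4.86 in replicate 1 and 5.91 in replicate 2, lay below the minimum. The other site (chr11:102879966-102882000), beyond the 3′ end of Gfap, covered the adjoining promoters of Ccdc103 and Eftud2, the latter a GTPase of the spliceosome. Its folds were 11.5 and 12.5.

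The sequences of 200 bases below show promoter sites of low and high CpG content, the feature described further on. Those of Gfap, Aldoc and Fabp7 are centred on the replicate 1 summit. Those of Vim and Slc1a2 end just before the first start, because the Vim summit lies in untranslated sequence and Slc1a2 had no site. All are GRCm38, 5′ to 3′ on the strand of the gene, and capitals mark CpG dinucleotides.
Vim, upstream of the start, chr2:13573727-13573926, plus strand: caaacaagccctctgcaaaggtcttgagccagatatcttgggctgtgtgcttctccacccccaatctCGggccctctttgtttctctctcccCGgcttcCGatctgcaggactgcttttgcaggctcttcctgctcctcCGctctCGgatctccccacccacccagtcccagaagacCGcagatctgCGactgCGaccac
Aldoc, own promoter site, chr11:78322637-78322836, plus strand: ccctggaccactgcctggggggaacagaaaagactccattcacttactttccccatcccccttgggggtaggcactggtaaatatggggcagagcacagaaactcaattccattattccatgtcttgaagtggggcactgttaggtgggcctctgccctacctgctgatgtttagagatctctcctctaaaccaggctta
Fabp7, own promoter site, chr10:57784439-57784638, plus strand: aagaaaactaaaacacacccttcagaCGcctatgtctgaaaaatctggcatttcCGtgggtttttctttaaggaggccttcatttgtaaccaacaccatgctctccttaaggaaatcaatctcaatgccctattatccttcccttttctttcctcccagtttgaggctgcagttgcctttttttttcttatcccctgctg
Gfap, own promoter site, chr11:102898259-102898458, minus strand: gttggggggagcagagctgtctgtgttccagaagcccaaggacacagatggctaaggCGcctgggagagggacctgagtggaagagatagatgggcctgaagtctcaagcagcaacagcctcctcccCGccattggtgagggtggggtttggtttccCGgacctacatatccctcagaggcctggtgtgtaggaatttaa
Gfap, Ccdc103 and Eftud2 promoter site, chr11:102880692-102880891, minus strand: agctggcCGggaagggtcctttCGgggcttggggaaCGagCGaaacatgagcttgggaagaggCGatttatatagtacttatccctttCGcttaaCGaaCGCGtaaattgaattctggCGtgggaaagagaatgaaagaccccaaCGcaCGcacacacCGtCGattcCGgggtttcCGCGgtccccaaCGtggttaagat
Slc1a2, upstream of the start with no site, chr2:102658459-102658658, plus strand: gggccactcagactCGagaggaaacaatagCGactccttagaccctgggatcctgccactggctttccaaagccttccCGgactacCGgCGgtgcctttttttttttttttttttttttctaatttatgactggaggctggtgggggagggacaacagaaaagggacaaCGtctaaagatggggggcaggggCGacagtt
The Aldoc window holds 0 CpG, the Fabp7 window 2 and the Gfap window 3, while the window at Ccdc103 and Eftud2 holds 18. The upstream windows of Vim and Slc1a2 hold 8 and 7.

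Slc1a3 encodes GLAST, the glutamate transporter of radial glia and astrocytes, and it held more sites than any other of these genes, 3 in a region of 96.6 kb. The strongest was intronic (chr15:8659165-8661217), 50.7 kb into the gene, with folds of 13.3 in replicate 1 (29 fragments, 9.02 to 18.8) and 13.8 in replicate 2 (41 fragments, 9.99 to 18.6). Its summits lay 17 bp apart, and its lower fold was at the 89.9th percentile of sites of the same class, those away from promoters. The promoter site (chr15:8709141-8710476) had lower folds, 7.95 and 6.90, with summits 428 and 380 bp into the gene. The third site (chr15:8715877-8718011), with summits 6283 and 6598 bp upstream, had folds of 8.84 and 10.5. The intervals of the intronic and promoter sites overlapped in both replicates, and the intronic fold was the higher in both, a difference that was not tested. Next to the intronic site, a second intronic peak had a fold of 6.57 in replicate 2 and of 4.86 in replicate 1, where the filter removed it. A downstream peak of 6.19 in replicate 1 met one of 3.94 in replicate 2.

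The pair of Slc1a3 sites away from the promoter are shown with the intronic S100b site, as the distal sites of the set. Each run is 200 bases centred on the replicate 1 summit, on the strand of the gene, and capitals mark letters that match a searched motif.
Slc1a3, intron, chr15:8659970-8660169, minus strand: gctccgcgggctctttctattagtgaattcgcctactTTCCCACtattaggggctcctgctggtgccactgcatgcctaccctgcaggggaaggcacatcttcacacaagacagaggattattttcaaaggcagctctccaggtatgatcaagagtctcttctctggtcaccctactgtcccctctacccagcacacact
Slc1a3, upstream, chr15:8716947-8717146, minus strand: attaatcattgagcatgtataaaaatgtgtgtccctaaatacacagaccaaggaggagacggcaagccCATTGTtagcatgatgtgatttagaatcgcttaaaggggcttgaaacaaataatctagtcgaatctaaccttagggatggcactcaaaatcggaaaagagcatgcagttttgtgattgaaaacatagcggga
S100b, intron, chr10:76255237-76255436, plus strand: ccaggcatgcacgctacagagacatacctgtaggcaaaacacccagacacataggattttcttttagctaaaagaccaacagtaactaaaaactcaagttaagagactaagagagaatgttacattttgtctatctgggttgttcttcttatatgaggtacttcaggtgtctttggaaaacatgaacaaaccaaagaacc
The capitals are the letters GTGGGAA of RBPJ, the effector of Notch signalling, read on the other strand of the Slc1a3 intron, and ACAATG of SOX factors, likewise on the other strand of the upstream site. The S100b window holds none of the searched motifs.

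Slc1a2, which encodes GLT-1, the main glutamate transporter of mature astrocytes, had a promoter peak in each replicate that failed the filter. Its fold was 3.98 in replicate 1 (8 fragments, 1.97 to 7.41) and 4.93 in replicate 2 (14 fragments, 2.84 to 8.05). A further 3 intronic peaks of replicate 2, with folds between 3.29 and 4.27, had no partner in replicate 1. The highest peak of Slc1a2 and that of Slc1a3, which lies in an intron, had intervals that did not overlap in either replicate.

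Gja1, which encodes the gap junction protein connexin 43, likewise had 1 promoter peak per replicate below the minimum. Its fold was 5.30 in replicate 1 (11 fragments, 2.87 to 9.14) and 3.94 in replicate 2 (11 fragments, 2.13 to 6.79), with summits 895 and 1188 bp into the gene. Aqp4, the water channel of astrocyte endfeet, had no peak in either library across its 41.5 kb region. On its chromosome 18, 52.8% of protein-coding genes had a site. The lowest folds listed in the Foxr2 p53LOF libraries were 3.09 and 2.96, so weaker binding at Aqp4 would not have been listed.

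Aldoc, the brain form of aldolase in glycolysis, carried the second highest own-promoter folds of the set. The promoter site (chr11:78321385-78324334) reached 12.4 in replicate 1 (27 fragments, 8.30 to 17.8) and 19.1 in replicate 2 (57 fragments, 14.5 to 24.6). Its summits lay 231 and 169 bp upstream of the start, 62 bp from each other. The other Aldoc site (chr11:78326672-78328816) runs from the 3′ end of Aldoc over the promoter of Pigs, a subunit of the GPI transamidase, with folds of 7.07 and 11.2.

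Aldh1l1, the folate enzyme widely used as an astrocyte marker, had no peak of either replicate at its own promoter. Its region entered the count through 1 site (chr6:90604636-90605667) at the promoter of Slc41a3, a magnesium transporter, 4.5 kb past the end of Aldh1l1. The fold there was 11.5 in replicate 1 (25 fragments, 7.59 to 16.7) and 6.90 in replicate 2 (20 fragments, 4.34 to 10.5). The ratio of 0.601 was the lowest of the 12 sites, and it lay outside the range of 0.744 to 1.88 that holds the middle 95% of all sites. Inside the gene, in the body of a longer non-coding transcript, paired peaks with summits 9308 to 15736 bp upstream of the main start did not pass the filter in both replicates: one pair had 6.19 in replicate 1 and 4.27 in replicate 2, the other 3.98 and 4.93. When sites at the promoter of another gene were left out, an alternative chosen after the values were known, 6 genes kept a site and Aldh1l1 was the gene lost, with 43.7% of all genes having a site on the same terms.

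S100b, a calcium-binding protein of astrocytes, had a promoter site (chr10:76253351-76254420) and an intronic site (chr10:76254973-76255742). In replicate 1 these were separate peaks, with folds of 6.63 (14 fragments, 3.82 to 10.8) and 7.51 (16 fragments, 4.48 to 11.9). In replicate 2 a single peak of 2863 bp covered both, with a fold of 8.87 (26 fragments, 5.91 to 12.8) at a summit 1557 bp into the gene. The promoter site of S100b therefore rests on its own summit in replicate 1 only.

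Fabp7, the brain lipid-binding protein of radial glia, had 1 site (chr10:57783495-57786358) over the start of this 3.57 kb gene. Its fold was 8.84 in replicate 1 (19 fragments, 5.50 to 13.6) and 10.5 in replicate 2 (31 fragments, 7.25 to 14.8). The summits lay 342 and 242 bp upstream of the start. Its lower fold stood at the 50.1st percentile of all sites.

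**Figure D2:**
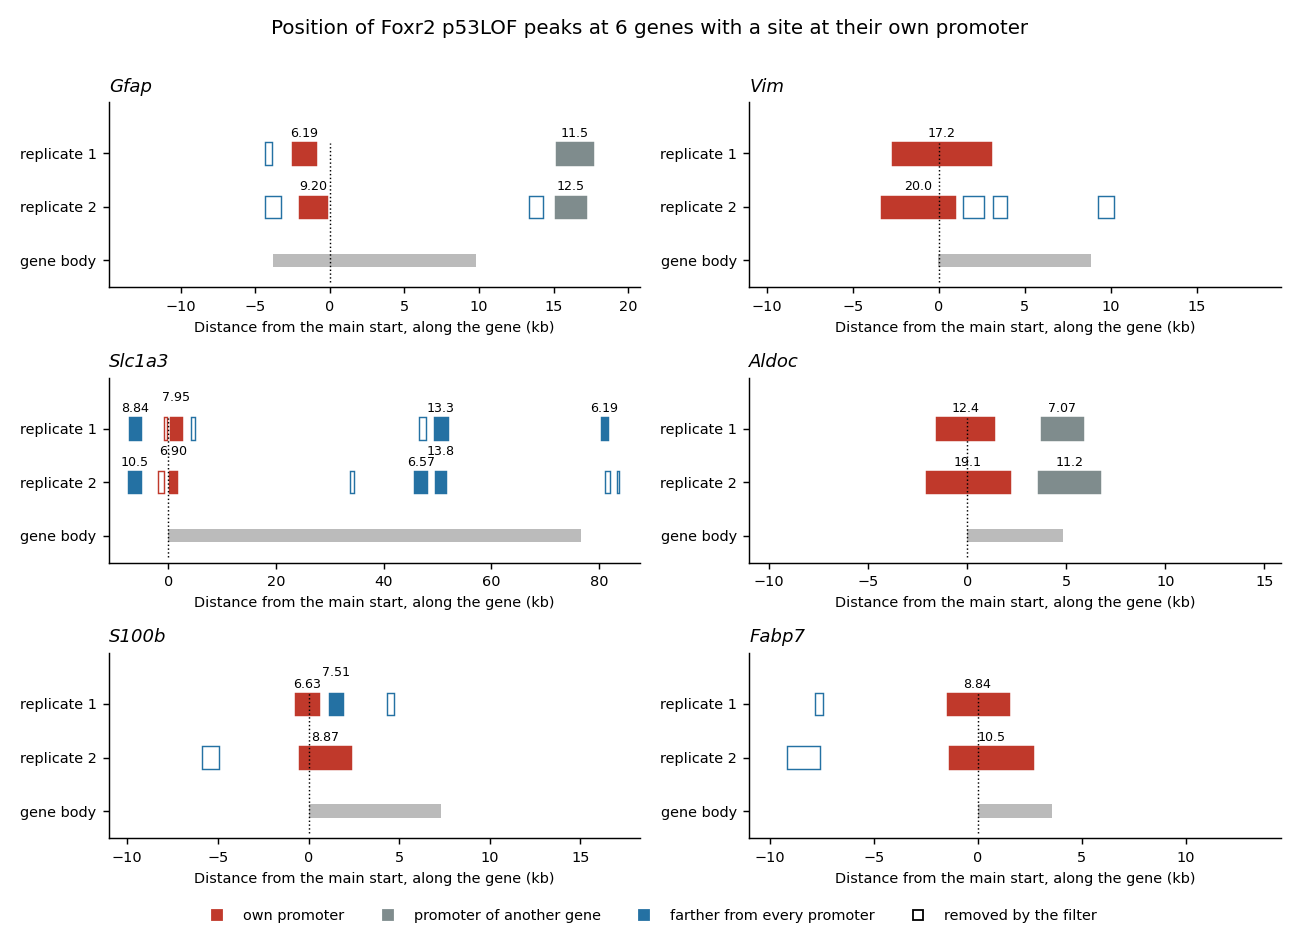
Position of peaks along 6 genes, as distance from the main start in kb in the direction of transcription; filled boxes are peaks kept by the filter with their fold, open boxes are peaks it removed, and the grey bar is the gene body. Peaks of Vim, Aldoc, S100b and Fabp7 cover the start in both replicates. The own-promoter peaks of Gfap lie upstream of it, and the highest Slc1a3 peaks (13.3 and 13.8) lie deep in the gene.

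By the lower of the pair of folds at the highest site or peak, the order was Vim (17.2), Slc1a3 (13.3), Aldoc (12.4), Gfap (11.5, at the Ccdc103 and Eftud2 promoters), Fabp7 (8.84), S100b (7.51), Aldh1l1 (6.90, at the Slc41a3 promoter), Slc1a2 (3.98) and Gja1 (3.94). Neighbours in this order had overlapping intervals in both replicates, except Aldh1l1 and Slc1a2, whose intervals were apart in replicate 1 only. Of the 36 pairs of genes with a peak, 6 were apart in both replicates. In these Vim stood above S100b, Slc1a2 and Gja1, and Slc1a3, Aldoc and Gfap stood above Slc1a2.

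The replicates gave higher folds in replicate 2 at 10 of the 12 sites, the exceptions being the Slc1a3 promoter (ratio 0.867) and the Slc41a3 promoter in the Aldh1l1 region. The ratio lay in the middle 95% of all sites at 11 of the 12. Summits of the replicates fell within 100 bp of each other at 8 sites.

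**Figure D3:**
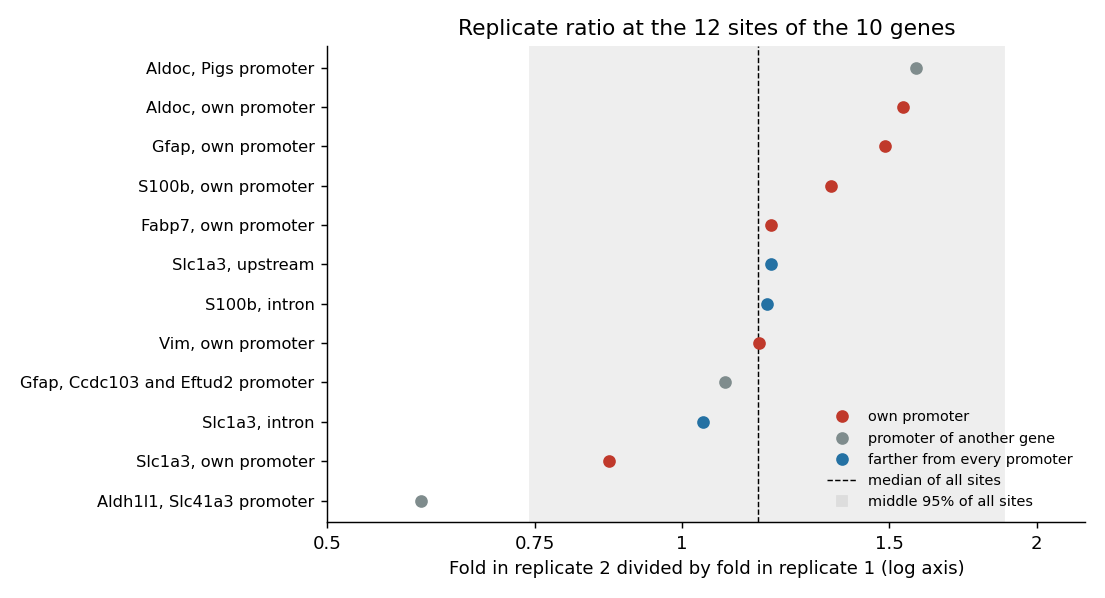
Fold in replicate 2 divided by fold in replicate 1 (log axis) at the 12 sites, with the median of all sites (1.16, dashed) and the range of their middle 95% (0.744 to 1.88, grey). The Slc41a3 promoter in the Aldh1l1 region, at 0.601, is the site outside the grey range.

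The CpG ratio, the observed over the expected number of CpG dinucleotides within 500 bp of the main start, was under 0.6 for 9 of the 10 genes, from 0.169 at S100b to 0.554 at Slc1a3. Slc1a2, with a ratio of 0.812, was the exception. Of the 9 genes with a low ratio, 6 had a site at their own promoter, against 13.3% of the 11456 protein-coding genes with such a ratio. With a minimum fold of 10 this count fell to 2 of 9 (Vim and Aldoc), against 5.37%. Slc1a2 had none, against 68.1% with one among the 10390 genes with a ratio of 0.6 or more.

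In narrower classes, S100b (0.169) fell among genes of which 3.32% had an own-promoter site. Aldoc (0.228) and Fabp7 (0.263) had sites in a class where 11.2% of genes did, while Aqp4 (0.288) and Aldh1l1 (0.341) of the same class did not. Gfap (0.403), Vim (0.524) and Slc1a3 (0.554) had sites, and Gja1 (0.476) none, in a class where 32.0% of genes did. Among the neighbours whose promoters held sites, Eftud2 (0.891), Ccdc103 (0.849) and Pigs (0.766) had high ratios, and Slc41a3 had 0.534. Genes were not separated by RNA level, so its part in these shares was not tested.

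**Figure D4:**
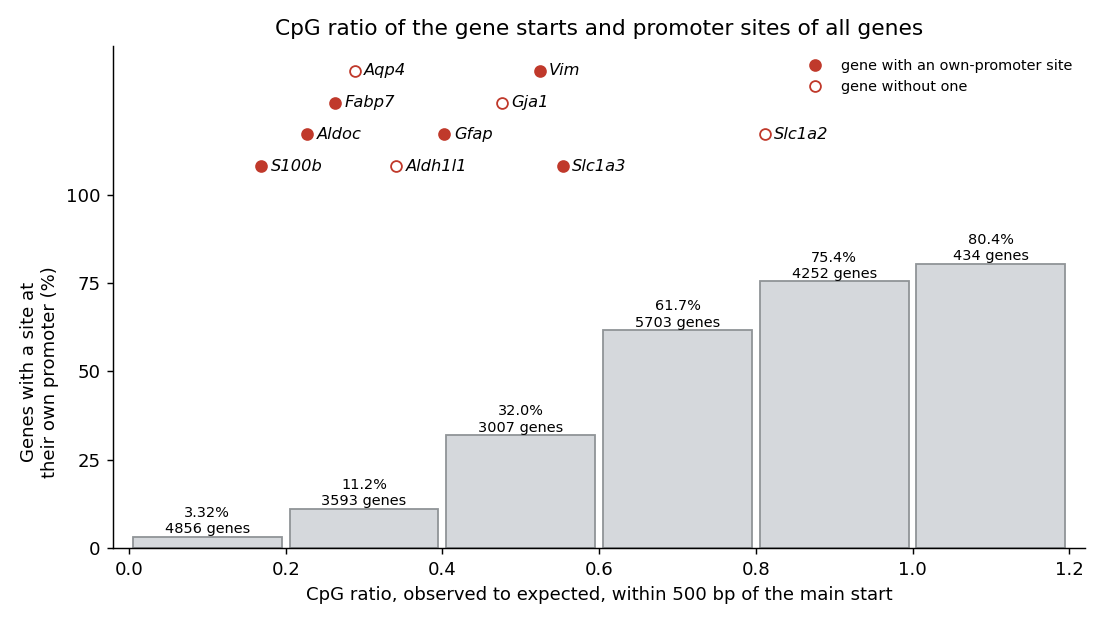
Bars give the percent of all protein-coding genes with a site at their own promoter, by class of CpG ratio (observed to expected, within 500 bp of the main start); circles above the bars mark the ratio of each of the 10 genes, filled where it has an own-promoter site, and their height has no meaning. Of the genes, 9 lie in the classes under 0.6, where bars reach 3.32% to 32.0%, and Slc1a2 lies among the genes of which 75.4% have a site.

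The share of genes with a site also differed by region length and by chromosome. Aldoc and Fabp7, with regions of 24.8 and 23.6 kb, fall in a length class, of 10 equal classes of all genes by region length, in which 38.6% had a site and 28.0% an own-promoter site. Slc1a3 falls in a class in which 61.7% had a site, and Slc1a2 and Aldh1l1 in the class of the longest regions, in which 56.8% did. Gfap and Aldoc lie on chromosome 11, which held 24.1 and 30.1 peaks per Mb in the replicates, against 11.7 and 14.1 over the assembled chromosomes, and on which 66.7% of genes had a site. On chromosome 15, that of Slc1a3, 65.4% of genes had a site, while on chromosome 2, that of Vim and Slc1a2, 42.1% did and on chromosome 10, that of Gja1, S100b and Fabp7, 50.5%. The part of the chromosome's level in these values was not tested.

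A search of 13 short motifs on both strands set the promoters (250 bp before to 50 bp after the main start) beside those of 21846 genes, and the 200 bp windows at the 12 summits beside those of 11943 sites. At least 1 motif was found in 8 of the 10 promoters (87.6% of all promoters) and in 6 of the 12 site windows (67.9% of all sites). The ETS letters AGGAAG were in the promoters of Gfap, Vim, Gja1, S100b and Fabp7, 5 of 10 (34.5% of all), and in the windows of the Vim site and the Slc1a3 promoter site (22.9% of all sites). The ETS letters CCGGAA were in the Aldoc promoter (18.1% of all) and in the windows at Ccdc103 and Eftud2 and at Slc41a3 (8.87% of all sites).

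TTCNNNGAA of STAT factors, which drive Gfap in astrocyte differentiation, was in the promoters of Gfap and Slc1a3 (8.24% of all) and in none of the 12 windows (4.71% of all sites). TTGGCA, a short form of the NFI motif, was in the promoters of Aldoc and S100b (13.4% of all) and in no window (7.66%). The palindromic NFI motif, which the shorter letters can overlap, was in none of either (0.0320% and 0.00837%). GTGGGAA of RBPJ was in the Aldoc promoter (5.96% of all) and in the windows of the Slc1a3 intron and of Ccdc103 and Eftud2 (4.09% of all sites). ACAATG of SOX factors was in no promoter (10.3%) and in the upstream Slc1a3 window (6.40%).

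GGGCGG, the GC box, was in the promoters of Slc1a3 and Aldh1l1 (45.5% of all) and in none of the 12 windows (25.8% of all sites). TGANTCA of AP-1 was in the Gja1 promoter (6.63%) and in no window (3.63%). The forkhead letters GTAAACA (2.92% of promoters, 2.10% of sites), the E-box CAGCTG (15.7% and 10.5%), AAGATGGC of YY1 (3.06% and 1.83%) and GCGCATGC of NRF1 (3.75% and 0.712%) were in none of the promoters or windows. A match is a run of letters in a window, and its absence says only that these letters are not there.

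Beside the 10 genes, 26 other genes were counted in the same way: genes of astrocytes and radial glia together with Slc1a1, Aldoa and Aqp1, relatives of the 10 genes that are not usual astrocyte markers. A site was found for 17 of the 26 (49.9% of all genes), at the own promoter for 12 (39.3%) and only away from it for 5 (10.6%). The highest lower folds were at Kcnj10, the Kir4.1 potassium channel (19.0 and 29.6, with no own-promoter site), and Fabp5, a fatty acid-binding protein related to Fabp7 (18.1 and 20.4). The lowest were at Slc1a1, a neuronal member of the glutamate transporter family (6.19 and 8.54), and Atp1b2, a subunit of the sodium pump (8.39 and 6.24), and 1 gene of the 26 had no peak. Without these 3 relatives, left out once the values were known, 15 of 23 genes had a site and 11 had one at their own promoter. Among 11 oligodendrocyte lineage genes, 10 had a site and 7 had one at their own promoter.

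The median lower fold of the highest site was 11.5 over the 7 genes with a site, 10.2 over 17 of the 26 other genes, 10.2 over the 10 oligodendrocyte lineage genes and 10.6 over all 10909 protein-coding genes with a site. The value of 11.5 is that of Gfap at the Ccdc103 and Eftud2 promoters. Over sites at the own promoter alone, computed once the values were known, the median was 7.87 for 6 of the 10 genes, 10.2 for 12 of the other genes, 8.84 for 7 oligodendrocyte lineage genes and 10.2 for all 8599 genes with such a site. Among genes with a CpG ratio under 0.6, own-promoter sites were found at 3 of 10 of the other genes and 5 of 9 oligodendrocyte lineage genes, beside the 6 of 9 given above and 13.3% of all genes with such a ratio. These lists are small and were chosen by name, and differences between them were not tested.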

How the data were processed

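Per the labels and the methods, the authors trimmed reads with Trimmomatic (0.39), aligned them to mm10 with BWA (0.7.17), removed duplicates with Picard (2.26.6) and called peaks with MACS2 (2.2.7.1), library by library; HOMER (4.11) is also listed in the submitters' processing notes. In the deposited lists, the fold (signalValue) is a linear ratio of summit to background. The −log10 of p and of q were also computed by the authors, within each library. Read totals are not listed, so the fragments at a summit were recovered from fold and p. The background that made them whole (within 0.02, for folds up to 30) was 1.26 and 2.04 in Foxr2 p53LOF replicates 1 and 2, and 1.69 and 0.643 in the control replicates. Intervals are exact 95% Poisson intervals on those fragments.

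Groups and replicate numbers came from the sample titles. The peak filter of the methods was applied: no overlap of 10 bp or more with a control peak, fold and −log10 q above 6, length under 10000 bp. The methods then keep only regions that are also open in single-nucleus ATAC data. Those data were not used here, so that step was not applied. A site is the overlap, of 1 bp or more, between kept peaks of replicates 1 and 2, ranked by the lower of the 2 folds. Genes with several starts have a main start, that of the first APPRIS principal transcript, the longest where several tie. Sequences were read from RefSeq's GRCm38.p6 genome, and only windows without annotated untranslated bases are printed. All 10 genes are named, with neighbours whose promoters hold their sites and the 2 highest and 2 lowest of the 26 other genes counted beside them. The genes, lists, motifs and alternatives were chosen with earlier results of these data known. Python 3.11.15, numpy 2.4.6, scipy 1.17.1 and pysam 0.24.0 were used. The recovery of the background, the filter and building of sites, and the assignment of sites to genes were tested on simulated data. The other steps were not. Alternatives covered the minimum fold and q, the control and shared overlap, the limit on length, the size of the gene region and promoter window, the level of the chromosome and leaving out each library. The use of the main start only, of sites outside other genes' promoters, of the stricter minima for genes of low CpG ratio and of the list without relatives was added once the values were known.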

Additional observations from a re-analysis of the deposited data

How the results depend on the processing

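The counts were 7 genes with a site, 6 with one at their own promoter and 1 with sites only away from it. Of 54 counts under the alternatives, 47 stayed within 1.5 times. They include counts of the genes with a low CpG ratio and of the other astrocyte and radial glia genes. Some could not move, such as those that changed only the control libraries, so the 47 does not measure how firm the counts are. With a minimum fold of 10, 4 genes kept a site (Gfap, Vim, Slc1a3 and Aldoc; 27.7% of all genes), 2 of them at their own promoter (Vim and Aldoc; 19.8%) and 2 only away from it (Gfap and Slc1a3; 7.89%). Among the 9 genes with a CpG ratio under 0.6, the own-promoter count then fell from 6 to 2, against 5.37% of all such genes. With a minimum −log10 q of 10, 4 genes had a site at their own promoter (Vim, Slc1a3, Aldoc and Fabp7, 33.6% of all genes). All 4 have a CpG ratio under 0.6, against 10.8% of all such genes. The count of genes with sites only away from their own promoter was then 3 (Gfap, Aldh1l1 and S100b, 10.2%). It was 2 with a promoter window of 500 bp (Gfap and Aldh1l1, 10.9%) and 0 within gene bodies only (3.36%). Leaving out each of the 4 libraries in turn left the counts at 7, 6 and 1. The shares of all genes with a site and with an own-promoter site rose from 49.9% and 39.3% to at most 55.0% and 43.7%, without Foxr2 p53LOF replicate 1. No control peak lay in any of these regions, so leaving out a control library could not change the counts. With 1 Foxr2 p53LOF library no overlap is required, so the counts of 7 and 6 could only hold or rise. The main start alone gave 6 genes with an own-promoter site (37.6% of all genes). Without either minimum, on fold and on q, 9 genes had a site (62.2% of all genes) and 8 had one at their own promoter (50.7%), Slc1a2 and Gja1 joining. Dividing folds by the median of their chromosome changed 11 of 18 values, by factors from 0.882 to 1.09. In 4 the change exceeded the SD of the gene's replicates: Vim from 20.0 to 17.7, Slc1a3 from 13.8 to 14.8, S100b from 8.87 to 7.83 and Fabp7 from 10.5 to 9.28, all in replicate 2. An SD of 2 values is a rough measure, and all 4 scaled folds lay within the 95% counting intervals of the unscaled ones. The cause of the changes was not tested. No paired analysis was possible because the counts and folds come from no test. The number of fragments at a summit limits each fold, and a gene without a listed peak can still hold weaker binding.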
